A study of Mus musculus with 2 samples.

Results

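The forkhead genes encode transcription factors that share a winged-helix DNA-binding domain. The 42 described here are the protein-coding genes whose GENCODE mouse symbol is Fox followed by a class letter from a to s and a number, without Foxf1 and Foxf2. They fall into 18 letter classes and stand among 43346 Ensembl gene rows, of which 21474 are protein-coding genes with a symbol. The rule uses names only and no measured value. The study profiled total RNA of the mouse limb at embryonic day 10.5 in strain B6NCrl, from embryos of mixed sex and with no treatment or mutation named in the labels. Both libraries belong to the same group. Replicate 1 was a pool of 69 embryos and replicate 2 a pool of 51 embryos, so each value is a mean over many animals and the variation between animals was not measured. RNA longer than 200 nucleotides was kept, and 10 ng went into each library with spike-in RNAs.

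The forkhead domain binds DNA through a recognition helix that lies in the major groove, flanked by loops called wings. Class letters follow the sequence of this domain, and classes differ outside it: FoxP factors carry a zinc finger and a leucine zipper for dimerisation, FoxK factors a forkhead-associated domain that binds phosphothreonine, and FoxO factors sites phosphorylated by AKT, which lead to export from the nucleus. In embryos forkhead factors are known for roles in mitosis (Foxm1), mesoderm and vessel development (Foxc1 and Foxc2), motile cilia (Foxj1), nodal signalling (Foxh1) and endoderm (Foxa1 and Foxa2).

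The libraries held 38932257 and 42465764 expected counts on Ensembl genes in replicates 1 and 2, and 3 counts amounted to 0.0771 and 0.0707 CPM (counts relative to the library total). Forkhead genes took 18977 and 22912 of these counts. All 12 listed limb mesenchyme markers were at 1 TPM (transcripts per length, scaled to the library) or more in both libraries, and 0 of 6 neural tube markers were, with a summed level of 0.32 and 0.27 TPM. With 2 libraries of 1 group there is no contrast between conditions, and an exact two-sided sign-flip permutation test cannot go below p = 0.5, so no p-value is given. In bulk RNA, fewer cells that express a gene and less RNA per cell cannot be told apart.

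A coding stretch of 51 nucleotides (17 codons) over the recognition helix was found in 41 of the 42 genes, the exception being Foxr1. The stretches below belong to genes on which the levels and comparisons turn. They are exonic coding sequence from GENCODE release M21 transcripts, written 5′ to 3′ on the coding strand. Capitals mark each base that differs from the commonest base at that position over the 41 genes.
Foxm1: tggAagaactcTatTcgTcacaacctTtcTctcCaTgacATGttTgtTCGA
Foxn3: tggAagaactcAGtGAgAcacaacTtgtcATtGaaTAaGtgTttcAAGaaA
Foxn2: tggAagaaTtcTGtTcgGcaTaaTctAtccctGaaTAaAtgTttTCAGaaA
Foxp4: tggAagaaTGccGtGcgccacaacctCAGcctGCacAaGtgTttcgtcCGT
Foxj3: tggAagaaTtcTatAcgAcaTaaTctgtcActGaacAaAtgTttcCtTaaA
Foxk1: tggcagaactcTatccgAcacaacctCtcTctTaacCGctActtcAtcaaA
Foxk2: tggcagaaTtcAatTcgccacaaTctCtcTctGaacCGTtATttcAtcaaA
Foxo1: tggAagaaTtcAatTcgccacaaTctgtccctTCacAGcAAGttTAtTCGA
Foxo3: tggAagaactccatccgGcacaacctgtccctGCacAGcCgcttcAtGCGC
Foxo4: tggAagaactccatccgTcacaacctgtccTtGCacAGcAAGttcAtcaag
Foxc1: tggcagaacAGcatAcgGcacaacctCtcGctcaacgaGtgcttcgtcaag
Foxc2: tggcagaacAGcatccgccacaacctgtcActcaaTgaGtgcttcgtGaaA
Foxd1: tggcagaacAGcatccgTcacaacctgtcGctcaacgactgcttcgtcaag
Foxd2: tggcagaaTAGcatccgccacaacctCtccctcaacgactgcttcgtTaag
Foxd3: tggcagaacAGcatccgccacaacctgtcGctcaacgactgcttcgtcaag

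Only 11 of the 51 positions held the same base in all 41 genes. Median identity was 85.3% over the 38 pairs within a class and 70.6% over the 782 pairs between classes. In 17 of the 38 within-class pairs the translated residues did not differ at all, so the base differences there were synonymous. Foxk1 and Foxk2 differed at 8 bases, with 0 residues different. Foxd1 and Foxd3 differed at 1 base. Foxd3, which had few counts in limb, carried 3 capitals, and the most abundant genes, Foxm1 and Foxn3, carried 16 and 18. The median GC content of the stretch was 43.1% in the genes expressed in the limb and 52.9% in those that were not. That comparison is a description over genes, which share ancestry and are not replicates.

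Of the 42 genes, 15 were expressed, meaning 1 TPM or more in both libraries. This is 35.7%, against 55.2% of all protein-coding genes. Another 22 lay between 0 and that threshold in at least 1 library, and 5 had 0 counts in both. The median forkhead gene stood at 0.217 TPM and the median protein-coding gene at 2.76 TPM. Just inside the threshold were Foxi2 at 1.76 and 1.59 TPM and Foxj2 at 1.46 and 2.65 TPM, and just outside was Foxc1 at 0.91 and 2.18 TPM. The summed forkhead level was 219.9 TPM in replicate 1 and 259.4 TPM in replicate 2. Foxm1, Foxn3 and Foxp1 made up 59.4% of it in each library, and the 15 expressed genes 97.3% and 98.1%.

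**Figure D1:**
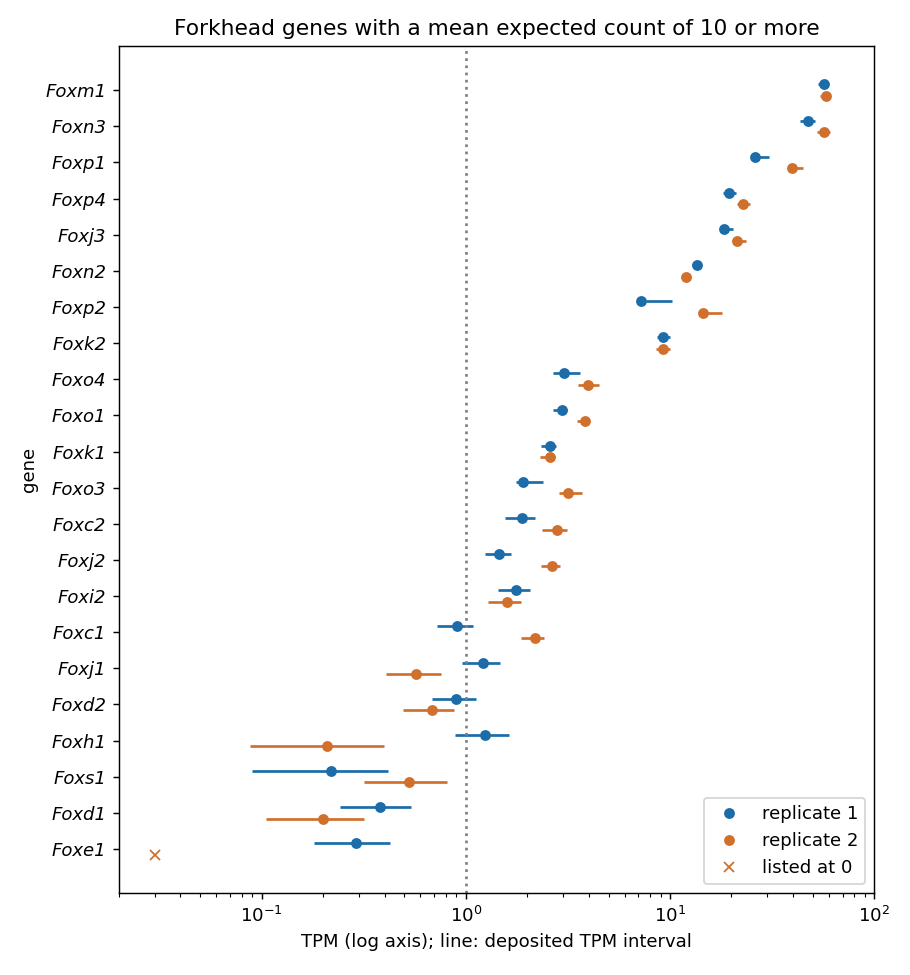
TPM on a log axis for the 22 forkhead genes that average at least 10 expected counts, ordered by mean; points are the libraries, lines the deposited TPM intervals, and the dotted line 1 TPM. Foxm1 (56.84 and 57.88 TPM) and Foxn3 (47.53 and 56.58 TPM) lead, and Foxe1 is listed at 0 in replicate 2 (cross, placed at the left edge).

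The order of the expressed genes by mean TPM was Foxm1, Foxn3, Foxp1, Foxp4, Foxj3, Foxn2, Foxp2, Foxk2, Foxo4, Foxo1, Foxk1, Foxo3, Foxc2, Foxj2 and Foxi2. Of the 14 neighbouring pairs in this order, 4 had deposited TPM intervals that stayed apart in the same direction in both libraries. These were Foxn3 above Foxp1, Foxp1 above Foxp4, Foxj3 above Foxn2, and Foxk2 above Foxo4. The other neighbours, among them Foxm1 and Foxn3 (1.20 and 1.02 times apart), did not differ beyond their intervals in both. Foxp2 stood below Foxn2 in replicate 1 (7.17 against 13.57 TPM) and above it in replicate 2 (14.55 against 12.04 TPM). Exon number is set beside the level as a description. Of 14 genes whose longest coding model has 1 exon, 1 was expressed (Foxc2), and their median was 0.11 TPM. Of 28 with several exons, 14 were expressed and the median was 1.29 TPM. These genes share ancestry and are not replicates, and a link between exon number and level was not tested.

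Foxm1, which drives genes needed for entry into and passage through mitosis, had the highest gene-level value at 56.84 TPM in replicate 1 and 57.88 TPM in replicate 2 (57.4 ± 0.735, SD, n = 2). It was not apart from Foxn3 in both libraries, and over protein-coding models alone Foxn3 was the higher of the pair in both. The libraries overlapped in their intervals, and 4948 and 5296 expected counts lay behind the values. The gene spans chr6:128362967-128376146 on the plus strand (GRCm38). Rhno1, a DNA-damage checkpoint gene on the other strand, starts 56 bp away without overlapping it, and was higher still at 161.3 and 164.5 TPM. Foxm1 acts at its targets together with the MuvB complex and B-Myb (Mybl2). The list of 10 genes drawn up for MuvB and B-Myb also holds E2f4 and the pocket protein gene Rbl2. All 10 were expressed, with a median of 20.7 TPM, and which of them act with Foxm1 was not tested. Rbbp4, a histone-binding subunit, led at 467.7 and 493.2 TPM, followed by E2f4 at 128.6 and 114.9 TPM, Mybl2 at 46.63 and 40.49 TPM, and Lin37 at 35.61 and 38.53 TPM, while Rbl2, a pocket protein, was lowest at 4.47 and 6.28 TPM.

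All 18 listed mitotic targets of Foxm1 were expressed as well, at a median of 187 TPM. The highest were Cenpa (centromeric histone) at 372.7 and 368.0 TPM, Cdc20 (activator of the anaphase-promoting complex) at 362.7 and 369.4 TPM, Birc5 (survivin) at 362.1 and 331.4 TPM, and Ccnb1 (cyclin B1) at 339.0 and 343.6 TPM. Cdkn3 was the lowest at 22.09 and 25.48 TPM. Of protein-coding genes, 4.83% of the 14172 averaging at least 10 counts differed 2-fold between the pools, and 1.57% of those averaging at least 100. None of the 18 targets did, which is close to either share for so few genes. Their log2 differences, replicate 2 minus replicate 1, ran from -0.25 for Birc5 to 0.29 for Cenpe with a median of -0.08, and Foxm1 itself was at -0.11. Those small negative values turn positive when libraries are scaled by spike-ins (median 0.18, Foxm1 0.15), a scaling that moves all protein-coding genes by 0.26, and also by deposited TPM (0.07 and 0.03), which moves them by 0.14. Set against the median of all genes, 13 of the 18 targets were lower under TMM (edgeR's trimmed-mean scaling). Spike-in scaling shifts all genes nearly alike, so its matching count is no separate check. By deposited TPM, 6 of the 18 were above the median of all genes.

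Classes N and P had the highest mean summed levels, 64.9 ± 5.28 TPM and 64.9 ± 17.1 TPM (SD, n = 2), although in replicate 1 class P, at 52.74 TPM, was below Foxm1. Within class N, Foxn3, known as a transcriptional repressor, stood at 47.53 and 56.58 TPM and Foxn2 at 13.57 and 12.04 TPM. Foxn3 was higher in both libraries, by 4.03-fold on average on the scale of log2(TPM + 0.1), used for all such ratios here, with intervals apart. Their helix stretches above differ at 14 bases and 1 residue. Under TMM these genes differed between the pools in opposite directions, 0.16 for Foxn3 and -0.33 for Foxn2 on the log2 scale. Each counting interval lay away from 0, as it did for 57.8% of all protein-coding genes averaging at least 10 counts. Under spike-in scaling the values were 0.42 for Foxn3 and -0.07 for Foxn2. The other class N genes were near 0: Foxn1, required in thymic epithelium, had 4 and 0 counts, and Foxn4, known from retina and spinal cord, had 0 and 0. Foxn3 covers chr12:99190078-99563582 on the minus strand. Its longest model in the deposited tables is 2882 nucleotides, against 7705 in release M21, and the effect of the missing sequence on its TPM was not tested.

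Class P joined Foxp1, Foxp4 and Foxp2, which form dimers with one another and recruit co-repressors. Foxp1 (chr6:98925338-99522721, minus strand) stood at 26.16 and 39.55 TPM, Foxp4 at 19.37 and 22.81 TPM and Foxp2 (chr6:14901349-15441977, plus strand) at 7.17 and 14.55 TPM. Foxp1 was above Foxp4 by 1.53-fold and above Foxp2 by 3.13-fold, and Foxp4 was above Foxp2 by 2.05-fold, each with intervals apart in the same direction in both libraries. The order was the same in both pools, but the gap between Foxp4 and Foxp2 was 1.42 on the log2 scale in replicate 1 and 0.65 in replicate 2. Foxp3, the factor of regulatory T cells, had 4 and 5 counts after rounding, 0.04 and 0.05 TPM. It overlaps Ccdc22 on the opposite strand, which had 31.76 and 30.68 TPM. The strand setting of the counting is not given, so reads of overlapping genes may not be fully separated. The deposited point estimate for Foxp2 in replicate 1, 7.17 TPM, lay below its own interval of 7.61 to 10.2 TPM. Among the expressed genes this was the only such case in replicate 1, and there were 0 in replicate 2. By deposited posterior mean TPM, Foxp2 stood at 8.85 and 16.2, and the mean log2 ratio of Foxp4 to Foxp2 was 0.82 instead of 1.03.

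FoxP, FoxK and FoxH1 partners were broadly present: 17 of 18 listed genes were expressed, at a median of 47.4 TPM. The co-repressor Ctbp1 stood at 291.6 and 324.5 TPM, the deacetylases Hdac1 at 257.4 and 283.1 TPM and Hdac2 at 237.7 and 274.5 TPM, and Ctbp2 at 121.2 TPM in both. The lowest and the most different was Nfatc2, a calcium-regulated partner of FoxP factors, at 0.85 and 2.62 TPM, a log2 difference of 1.45. The other end of the range was Dvl1, a Wnt mediator, at -0.39.

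Class K factors, which bind BAP1 and Dishevelled proteins, had nearly the same TPM in both pools: Foxk2 was at 9.25 and 9.19 TPM and Foxk1 at 2.59 and 2.57 TPM. After TMM scaling Foxk2 differed by -0.20 and Foxk1 by -0.16 on the log2 scale, and both signs turn under spike-in scaling, to 0.06 and 0.10. Foxk2 exceeded Foxk1 by 3.48-fold, a log2 ratio of 1.80 in each library. Class J was spread widely. Foxj3, which has roles in muscle and germ cells, stood at 18.40 and 21.18 TPM, Foxj2 at 1.46 and 2.65 TPM, and Foxj1, the regulator of motile cilia, at 1.22 and 0.57 TPM. Foxj3 exceeded Foxj2 by 9.58-fold and Foxj1 by 21.1-fold, with intervals apart in both libraries. The gene overlaps Frg2f1 on the opposite strand. The tables assign 28 and 61 counts to Frg2f1 and 2139 and 2512 to Foxj3. Of 6 multiciliated-cell markers, 1 was expressed, the microtubule protein gene Tekt1 at 4.21 and 4.58 TPM, and Mcidas and Dnah5 had 0 counts in both libraries.

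FoxO factors, which insulin and growth factor signalling through AKT keeps out of the nucleus, were all modest. Foxo4 stood at 3.04 and 3.96 TPM, Foxo1 at 2.95 and 3.84 TPM and Foxo3 at 1.91 and 3.17 TPM, while Foxo6 had 1 count in each library. In replicate 1 Foxo3 was below Foxo1 and below Foxo4 with intervals apart, and in replicate 2 the intervals overlapped. No order among the 3 is therefore called. Foxo1 exceeded Foxo6 with intervals apart in both, although 1 count gives no usable fold. All 3 expressed FoxO genes were somewhat higher in replicate 2, by 0.30 for Foxo4, 0.24 for Foxo1 and 0.39 for Foxo3 on the log2 scale. Their counting intervals lay above 0, as they did for 28.4% of all protein-coding genes averaging at least 10 counts. The deposited TPM intervals of Foxo4 overlapped between the libraries.

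Regulators that act on FoxO proteins were present over a wide range of levels. Of 22 listed AKT and insulin pathway genes, 21 were expressed, at a median of 20.7 TPM. The 14-3-3 genes Ywhae (931.2 and 955.0 TPM) and Ywhaz (687.8 and 709.6 TPM), whose proteins hold phosphorylated FoxO in the cytoplasm, led, ahead of the export receptor Xpo1 (110.8 and 127.8 TPM) and the ubiquitin ligase subunit Skp2 (107.2 and 116.1 TPM). Pik3cb was lowest at 0.65 and 0.88 TPM. The largest differences between the pools were 0.45 for Sgk1 and -0.68 for Akt1. A 2-fold difference was reached by 0 of 22, beside 4.83% of protein-coding genes averaging at least 10 counts and 1.57% at 100 or more. For so few genes, 0 is close to either share. Among 25 known FoxO target genes, 16 were expressed, at a median of 9.74 TPM. Bnip3 (mitophagy) stood at 91.47 and 94.33 TPM, Cat (catalase) at 68.29 and 79.50 TPM, Ccng2 (cyclin G2) at 32.42 and 59.80 TPM, and Cited2 at 38.21 and 40.78 TPM. The hepatic gene G6pc and the death ligand gene Fasl had 0 counts. Of the 20 targets past the count filter, 15 were higher in replicate 2 and 5 lower, with a median of 0.22, against 50.9% of all protein-coding genes higher. Among those averaging at least 100 counts, values ran from -0.50 for Bbc3 to 0.76 for Ccng2. Set against the median of all genes, 15 of the 20 were above it under TMM and also by deposited TPM. DESeq2 and spike-in scaling shift all genes nearly alike, so their matching count of 15 is no separate check. A 2-fold difference was reached by 2 of the 20 targets, the muscle ubiquitin ligase gene Trim63 and the recombinase gene Rag1. Both were higher in replicate 2 and both under 1 TPM. Of all protein-coding genes averaging at least 10 counts, 3.66% were 2-fold higher in replicate 2.

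Foxc2 and Foxc1 act in paraxial mesoderm, vessels and skeleton. Foxc2 (chr8:121116171-121118895, plus strand, 1 exon) stood at 1.89 and 2.80 TPM on 132 and 204 counts, and Foxc1 (chr13:31806633-31812476, plus strand, 1 exon) at 0.91 and 2.18 TPM on 94 and 233 counts. Foxc2 was higher with intervals apart in replicate 1 only, so the pair is not called. Their stretches differ at 7 bases and 0 residues. Foxc1 is modelled at 3953 nucleotides in the tables and 5844 in release M21. Each has a forkhead neighbour on the same chromosome within 500 kb, and that neighbour was almost silent. Foxq1 ends 245.656 kb before Foxc1 starts and had 9 and 2.18 counts, 0.13 and 0.03 TPM. Foxl1 lies 9.044 kb beyond Foxc2 and had 6.38 and 6.75 counts, 0.09 TPM in each. In both libraries Foxc1 exceeded Foxq1 and Foxc2 exceeded Foxl1 with intervals apart, by 8.78-fold and 12.6-fold on the scale of log2(TPM + 0.1). The remaining linked pair, 16.273 kb apart on chromosome 4, was Foxd2 at 0.90 and 0.68 TPM and the lens gene Foxe3 at 0 counts in both.

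Class D was led by Foxd2, on 60 and 47 counts. Foxd1, known from kidney stroma, had 24 and 13 counts, 0.38 and 0.20 TPM. Foxd2 exceeded it by 2.33-fold on that scale, with intervals apart in both libraries. Foxd1 is modelled at 2462 nucleotides in the tables and 5064 in release M21. Foxd2os, a transcript on the opposite strand that starts 384 bp from Foxd2, was more abundant than Foxd2 at 3.58 and 2.02 TPM. Foxd3, a neural crest gene, had 4 and 3 counts and Foxd4 had 1 and 0. Their stretches are the same at all 51 bases.

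Factors that define other organs were at or near the limit of detection. The endoderm genes Foxa1, Foxa2 and Foxa3 had 5 and 0, 7 and 0, and 0 and 1 counts. Foxb1 and Foxb2 had 5 and 3, and 4 and 5 counts. Class I and R followed the same pattern outside Foxi2, with Foxi3 at 0 and 2 and Foxr2 at 3 and 2 counts. Foxe3, Foxi1, Foxl2, Foxn4 and Foxr1 had 0 counts in each library, which allows up to 3 counts or 0.0771 and 0.0707 CPM. Absence from the tissue is not shown by these counts.

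**Figure D2:**
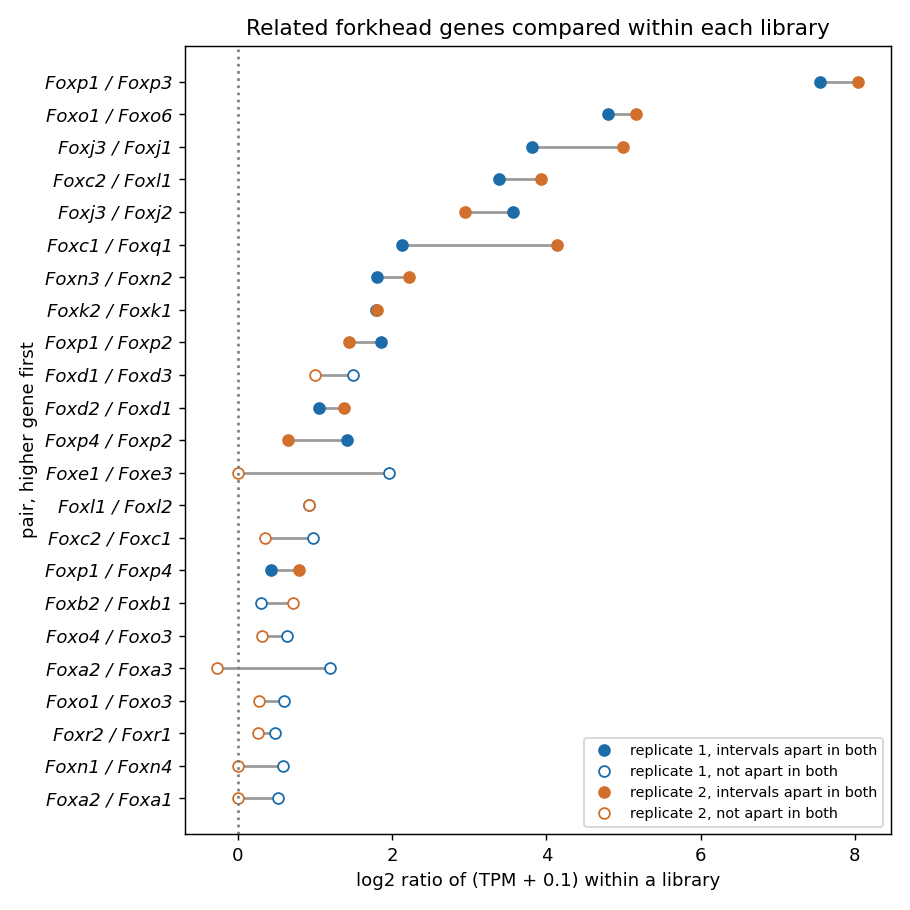
Log2 ratio of (TPM + 0.1) within each library for the 23 listed pairs of forkhead genes related by class or linked on a chromosome, with the higher gene first; filled points mark pairs whose deposited TPM intervals were apart in the same direction in both libraries. Foxk2 over Foxk1 is at 1.80 in each library, and Foxc1 over Foxq1 is spread from 2.13 to 4.13.

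In all, 12 of 23 listed pairs were called in both libraries. The called pairs were Foxp1 above Foxp2, Foxp4 and Foxp3, Foxp4 above Foxp2, Foxo1 above Foxo6, Foxk2 above Foxk1, Foxj3 above Foxj2 and Foxj1, Foxn3 above Foxn2, Foxd2 above Foxd1, Foxc1 above Foxq1 and Foxc2 above Foxl1. In replicate 1 alone 18 pairs had intervals apart, and in replicate 2 alone 12. The pairs apart in replicate 1 only were Foxc2 above Foxc1, Foxo1 above Foxo3, Foxo4 above Foxo3, Foxd1 above Foxd3, Foxa2 above Foxa3 and Foxe1 above Foxe3. The last 3 of these pairs hold genes with 24 counts or fewer.

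Between the pools, 22 forkhead genes passed the count filter, 12 higher and 10 lower in replicate 2. Their median log2 difference was 0.02 and that of all protein-coding genes 0.01. At least 2-fold differences were seen in 4 of the 22: Foxc1 was higher in replicate 2, and Foxj1, Foxh1 and Foxe1 were lower. The background is 3.66% of protein-coding genes 2-fold higher and 1.17% 2-fold lower. Of these 4, Foxc1 was the only gene that averaged at least 100 counts. That is 1 of 16 such forkhead genes, against 1.57% of all. Of the 16, 11 were higher in replicate 2 and 5 lower, where 48.5% of all genes at that depth were higher. Among the 6 forkhead genes averaging between 10 and 100 counts, 3 reached 2-fold, where 19% of all genes in that range did. The counting interval, which covers counting error only, lay above 0 for 9 genes and below 0 for 7. Across all genes it lay above 0 for 28.4% and below 0 for 29.4%, 57.8% in all. The biological coefficient of variation between the pools, over all genes, was 0.170.

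**Figure D3:**
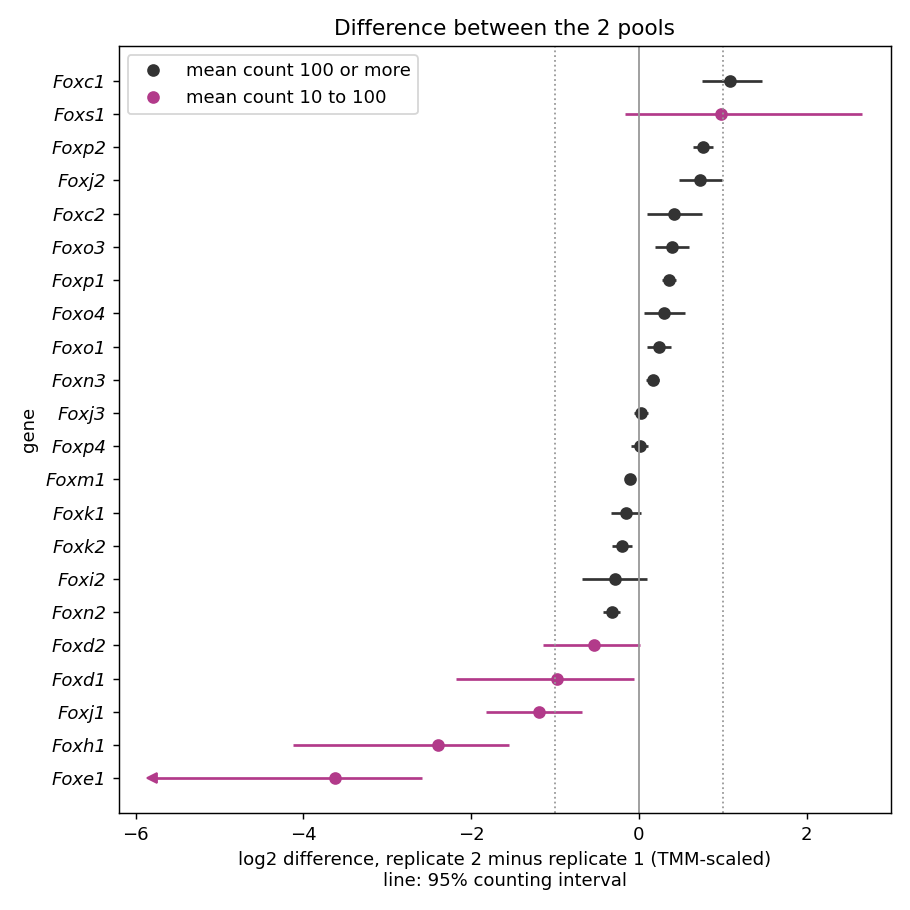
Log2 difference between the pools (replicate 2 minus replicate 1, TMM-scaled) for the 22 forkhead genes past the count filter, with 95% counting intervals; colour separates genes averaging at least 100 counts from those at 10 to 100, dotted lines mark 2-fold, and the arrow is an interval without a lower end. Foxc1 is highest at 1.09, and Foxh1 (-2.40) and Foxe1, with 0 counts in replicate 2, are lowest.

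Foxc1 had 94 counts in replicate 1 and 233 in replicate 2, a log2 difference of 1.09 (interval 0.75 to 1.47). Foxp2 followed among the genes with 100 counts or more at 0.76 (0.64 to 0.88), then Foxj2 at 0.73 (0.48 to 0.99), Foxc2 at 0.42 (0.10 to 0.75), Foxo3 at 0.39 (0.19 to 0.60) and Foxp1 at 0.36 (0.28 to 0.45). Foxs1 had 7 and 18 counts and an interval that includes 0. Markers of other tissues also differed between the pools, beside 50.9% of all protein-coding genes that were higher in replicate 2. All 6 cartilage markers past the filter were higher in replicate 2, with a median of 0.84, and the 7 listed summed to 194.9 and 420.1 TPM, with Matn1 at 0 in replicate 1. Of 8 somite and sclerotome markers 5 were higher, with a median of 0.87 and a sum of 66.66 and 107.4 TPM. Of these Pax9 had the largest difference, 2.04, Uncx was at least 2-fold lower at -1.31, and the lowest of the list, Nkx3-2, stood at 0.09 and 0.42 TPM. Of 6 muscle markers 4 were higher, with a median of 0.46 and a sum of 25.64 and 50.81 TPM, and Myod1 differed by 3.28. Neural crest and glia markers were higher in 3 of 4 (median 0.54) and macrophage markers in 3 of 5 (median 0.43). Their part in the forkhead differences was not tested.

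The 3 genes at least 2-fold lower in replicate 2 averaged under 100 counts. Foxh1, the DNA-binding partner of Smad2 in nodal signalling, had 40 and 7 counts, 1.24 and 0.21 TPM, a log2 difference of -2.40 (interval -4.12 to -1.54). Foxe1, a thyroid and palate factor, had 21 and 0 counts, and the upper end of its counting interval was -2.58. Its overlapping antisense gene Gm12446 had 5 and 0 counts. Foxj1 had 82 and 40 counts, a log2 difference of -1.20 (interval -1.82 to -0.68). Erythroid markers were lower in 5 of 5, with a median of -0.54 and a summed level of 8612 and 7549.6 TPM. Surface ectoderm markers were lower in 7 of 9, with a median of -0.26 and a sum of 264.45 and 250.4 TPM, and 1 was at least 2-fold higher. Under spike-in scaling, which moves all protein-coding genes by 0.26, 5 of the 9 were lower and the median was -0.005. Genes listed as gut endoderm markers were lower in 3 of the 4 past the filter, with a median of -0.64. The summed level over all 8 was 47.25 and 37.17 TPM, with Hnf4a listed at 0.05 and 0 TPM. This list shares a gene with the endothelial list, and its genes are not all particular to gut endoderm. Which tissue these values come from was not tested. Kidney and coelomic-lining markers had a median of -0.34, 3 of 5 lower, while their sum was 29.59 and 37.57 TPM. Among them the mesothelial gene Upk3b was at 7.06 and 1.92 TPM. Endothelial markers differed little, with a median of -0.01 and all 9 expressed. The part of these markers in the differences was not tested.

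Of the 15 expressed genes 4 have 1 transcript model and 11 have several, 101 models in all. In all 11 the transcript with the largest share of the gene's TPM was the same in both libraries, and in 7 its mean share was above 50%. Foxk2-201 held 96.7% and 93.7%, Foxn2-201 87.3% and 86.1%, Foxm1-201 72.0% and 73.2%, and Foxj3-202 62.3% and 53.7%. The leading share was smaller in the FoxP genes: 46.1% and 45.8% for Foxp1-225, 41.5% and 40.6% for Foxp4-204, and 37.7% and 34.6% for Foxp2-207. Foxn3 was divided between Foxn3-201 (39.2% and 40.7%) and the short model Foxn3-205 (36.8% and 35.2%). Shares are per length, so short models need few reads: Foxn3-205, of 566 nucleotides, rested on 218 and 259 counts, and Foxn3-201 on 1344 and 1728. In the same way Foxp1-225 (1848 nucleotides) had 562 and 880 counts, and Foxp1-204 (7177 nucleotides), with 16.6% and 14.5% of TPM, had 818 and 1125. Foxo3-202, which lacks the helix stretch, held 4.46% and 19.2% of Foxo3 TPM, on only 2.76 and 20.64 counts.

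**Figure D4:**
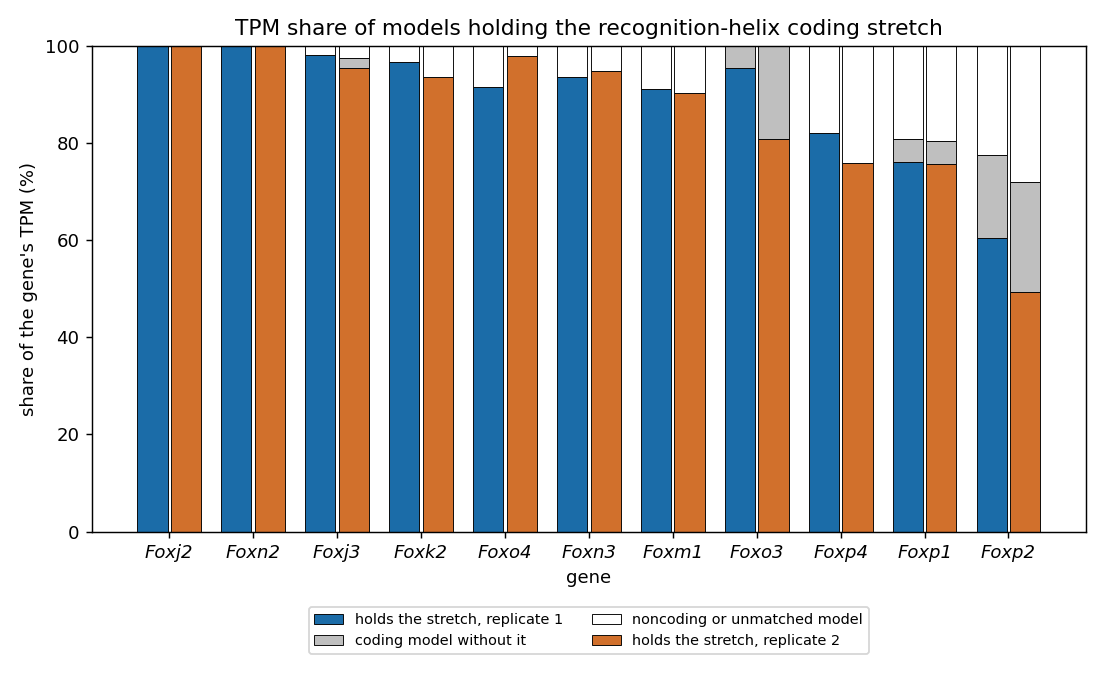
Share of each gene's TPM (%) in models whose M21 sequence holds the 51-nucleotide helix stretch, for the 11 expressed forkhead genes with several models. Both libraries stand side by side. Coloured bars are models of any type that hold the stretch, retained-intron models included. Grey is protein-coding models without the stretch, and white is other models without it or unmatched models. Foxp2 has the smallest share, 60.5% and 49.3%, while Foxj2 and Foxn2 are at 100%.

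Judged by M21 sequence, the recognition-helix stretch was held by at least 90.4% of TPM in Foxm1, Foxn2, Foxn3, Foxj2, Foxj3, Foxk2 and Foxo4 in both libraries. Some deposited models have other lengths. Foxn3-205 is 566 nucleotides there and 696 in M21, Foxn3-201 is 2803 and 7705, and Foxm1-201 is 4399 and 4652. Whether these deposited models hold the stretch was not tested. In Foxp4 the share was 82.0% and 75.8%, in Foxp1 76.1% and 75.6%, and in Foxp2 60.5% and 49.3%. Of Foxp2 TPM, 17.04% and 22.6% came from protein-coding models without the stretch. These include Foxp2-203, whose coding sequence is 249 nucleotides long, at 17.04% and 15.8%. A further model, the retained-intron transcript Foxp2-213, held 13.2% and 12.5%. By counts rather than TPM, 77.6% and 74.1% of Foxp2 reads were assigned to models with the stretch. A model is counted as holding the stretch when its letters are present, whatever its type: Foxn2-202, a retained-intron transcript with 12.7% and 13.9% of Foxn2 TPM, contains it. Retained-intron models matter for Foxm1 too. Over protein-coding models alone Foxm1 stood at 41.62 and 42.46 TPM, below Foxn3 at 44.32 and 53.20 TPM. The Foxn3 value includes 17.48 and 19.93 TPM from the short model Foxn3-205, and without that model Foxn3 lay below Foxm1. The number of expressed forkhead genes over protein-coding models alone was again 15.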

How the data were processed

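Total RNA was measured in 2 libraries of 1 group. The authors deposited gene and transcript tables with expected counts, TPM, posterior mean TPM, TPM interval bounds (used as scores, with no level stated) and, per transcript, the percent of the gene's TPM. Genome mm10 and GENCODE release M4 are per the labels, while no label or header used here names the quantifier or the strand setting. GENCODE M21, whose assembly GRCm38 equals mm10, supplied names, coordinates and exons. Expected counts were rounded, scaled by TMM in edgeR 4.0.16 (prior count 2) and differenced. An exact binomial interval (95%) covers counting error only. Spike-in rows stayed out of library sizes. Genes were called expressed at 1 TPM or more in both libraries, and 2-fold apart where they averaged at least 10 counts. Self-tests used simulated counts. The helix stretch was planned on proteins and, with no protein table used, was located by a residue pattern in translated coding sequence. The pattern was widened once after some genes gave no match. Every forkhead gene could be named. In other lists the 4 highest, the lowest, and the extremes of difference at 100 counts or more were named, and the opposite-strand neighbours, Matn1, Uncx, Trim63 and Rag1 were named after their values were seen. Members and lists were chosen with earlier results of these data known. Some items are not reported here.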

Additional observations from a re-analysis of the deposited data

How the results depend on the processing

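The count of expressed forkhead genes, 15, was 15 by posterior mean TPM, by CPM per kb and over protein-coding models alone (added after seeing the data), 18 at a threshold of 0.5 TPM, and 16 to 17 on a single library. The median of 0.217 TPM became 0.280 by posterior mean TPM, 0.150 as CPM per kb and 2.56 over genes averaging at least 10 counts. For the 1 gene 2-fold higher in replicate 2, TPM ratios gave 2, spike-in scaling 3 and a prior count of 0.5 gave 2. For the 3 lower, no count filter gave 7 and a minimum of 100 counts gave 0. The median difference of 0.02 became 0.22 by TPM, 0.28 by spike-ins and 0.21 at 100 counts or more, where all genes stand at 0.14, 0.26 and 0.00. Foxj1 fell short of 2-fold by TPM (-0.98) and spike-ins (-0.94). Foxp2 passed it by both (1.01 and 1.02), although its TPM ratio rests on a replicate 1 estimate below its own interval. Foxd1 passed it under DESeq2 size factors and a prior of 0.5 (-1.06), and Foxs1 under spike-ins (1.21) and a prior of 0.5 (1.11). No sign of a 2-fold difference reversed, and Foxm1, Foxk1 and Foxk2 changed sign under spike-in scaling. The pairs called numbered 12 without replicate 1 and 18 without replicate 2. The leading transcript was the same in 11 of 11 genes by posterior mean TPM too. Posterior means and pseudocounts cannot change a pair call, which uses the intervals, so neither was run for that count. Leaving out a library leaves no difference between the pools. No paired analysis was possible because the study has 1 group.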
